A study of Mus musculus with 6 samples.

Results

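The mitochondrial genome of the mouse carries 37 annotated genes, and all 37 were measured in STRA8+ cells of the testis with and without Srsf1. The members were chosen by chromosome alone, as every gene that the deposited table places on chromosome MT (GRCm38, gene names beginning with mt-). They are 13 protein-coding genes, 2 rRNA genes and 22 tRNA genes, out of 54532 genes in the table. No measured value entered the choice of members, but the set was taken up with results of the same control and cKO libraries known. Their calls are therefore given as a description beside the share of all genes called, and no test was run over the set.

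The 6 libraries came from mouse testis, from germ cells labelled as STRA8+. The labels give the genotype of the control group as Cre and that of the other group as Srsf1 knockout, here called cKO for conditional knockout, with 3 libraries in each. STRA8 is a protein of differentiating spermatogonia and of germ cells entering meiosis, and Srsf1 encodes a splicing factor that acts in the nucleus. The labels mark all 6 libraries with the treatment of a conditional knockout, and the controls are described by Cre alone. The promoter that drives Cre, the state of the floxed alleles in the controls, the age of the animals, the number of animals behind a library and the kit that selected RNA are not given in the sources used here. Nothing says that the 3 libraries of a group came from separate animals, so the p-values measure the spread between these libraries.

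Mitochondrial DNA is transcribed from both of its strands into long precursors. In most places tRNA genes lie between the mRNA and rRNA genes. Excision of the tRNAs at both ends releases most of the mature mRNAs, and most mRNAs then receive short poly(A) tails. The protein-coding genes encode core subunits of respiratory complexes I, III and IV and of ATP synthase, while all other subunits and all proteins that transcribe, process and translate mitochondrial RNA are encoded in the nucleus.

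Levels are given in FPKM, the fragments on a gene scaled by its length and by the size of the library, so that genes of different length can be compared. Between 14447887 and 17310353 fragments were counted on genes per library. The targeted gene followed the labels: Srsf1 was at 84.7, 45.2 and 51.9 FPKM in control replicates 1, 2 and 3 and at 5.08, 4.94 and 5.17 FPKM in the cKO replicates (log2 fold change -3.29, SE 0.22, limma adjusted p 5.65e-05). Stra8 was at 222 to 313 FPKM over the 6 libraries, and the germ cell genes Ddx4 and Dazl were at 129 to 169 and 362.5 to 584 FPKM. The libraries also differed in later germ cell stages. All 10 pachytene spermatocyte markers and all 10 spermatid markers fell in the cKO group, where 22.2% of all genes tested were called lower, and the summed FPKM of the spermatid markers ranged from 2487 to 8359 in the control group and from 8.02 to 9.63 in the cKO group. In bulk RNA, fewer cells of a type and less RNA per cell cannot be told apart. The part of this shift in the mitochondrial values below was not tested.

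Mitochondrial genes took a larger share of the fragments in the cKO libraries. They held 2.22%, 2.25% and 2.27% of all fragments in control replicates 1, 2 and 3, and 2.72%, 3.31% and 2.72% in cKO replicates 1, 2 and 3. No cKO library overlapped the control range. The means were 2.24% ± 0.03 (SD, n = 3) in the control and 2.92% ± 0.34 (SD, n = 3) in the cKO group, a ratio of 1.30, and the exact permutation p was 0.1, which is the smallest that 3 libraries against 3 can give. Without cKO replicate 2, which was the highest, the ratio was 1.21. Spermatid RNA differed among the controls too, with the spermatid gene Tnp2 at 708, 2648 and 775 FPKM in control replicates 1, 2 and 3. Its part in the mitochondrial share was not tested.

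The 13 protein-coding genes held 2.20% ± 0.03 of all fragments in the control and 2.88% ± 0.34 in the cKO group (SD, n = 3, no overlap, exact permutation p = 0.1). The 2 rRNA genes held 0.0412% ± 0.0017 in the control and 0.0371% ± 0.0035 in the cKO group (SD, n = 3, overlapping, exact permutation p = 0.3). The 22 tRNA genes held 0.00619% ± 0.00014 and 0.00434% ± 0.00034 (SD, n = 3, no overlap, exact permutation p = 0.1), a ratio of 0.702. For each 100 fragments on mitochondrial mRNA, 1.81 to 1.99 fell on rRNA genes in the control libraries and 1.08 to 1.54 in the cKO libraries.

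**Figure D1:**
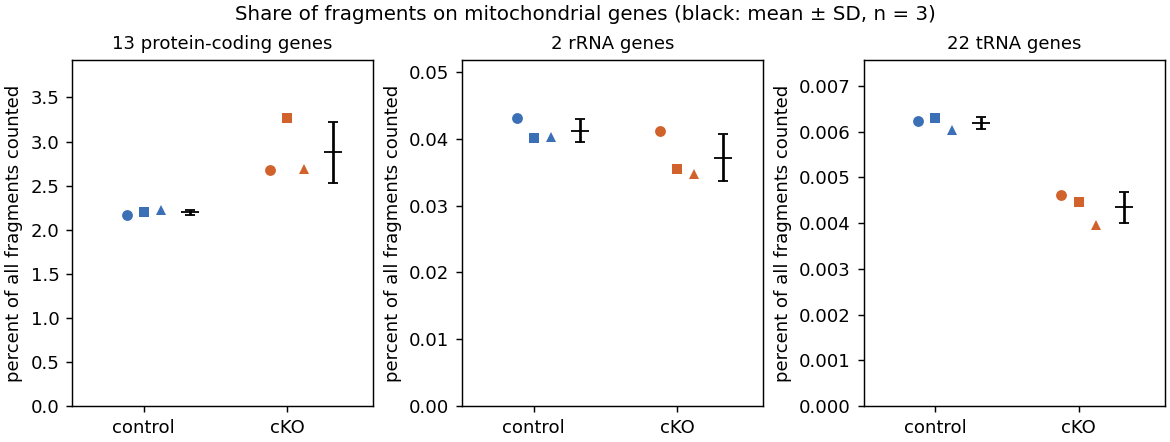
Percent of all counted fragments on mitochondrial protein-coding, rRNA and tRNA genes (y axes, each from 0) in the control and cKO libraries (x axis). Coloured points are libraries, with a circle, square and triangle for replicates 1, 2 and 3, and the black mark is the mean ± SD (n = 3). The protein-coding share was higher in every cKO library, from 2.68% to 3.27% against 2.17% to 2.22%, and the tRNA share lower.

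In the fit across the 15451 genes whose FPKM averaged 1 or more (limma on log2(FPKM + 1), Benjamini-Hochberg adjustment), 6 of the 13 protein-coding genes passed an adjusted p of 0.05 as higher in the cKO group and 0 as lower. Of all genes tested, 11.8% were called higher and 22.2% lower. At an unadjusted p under 0.05 no protein-coding gene was lower either, since all 13 fold changes were above 0. The median log2 fold change of the 13 genes was 0.48, with a range from 0.09 to 0.85, against -0.01 for all genes tested. The control and cKO libraries did not overlap for 8 of the 13, against 50.4% of all genes tested. The direction did not hold for all 13 in every alternative: quantile normalisation put mt-Nd2 at -0.09, and without cKO replicate 2 mt-Co1, mt-Nd3 and mt-Co3 were at -0.05, -0.03 and -0.27. Quantile normalisation gives the same value to a gene of the same rank in every library, and so put mt-Nd1, mt-Co1 and mt-Cytb at 0 by construction. Fold changes below are log2(FPKM + 1) differences, cKO against control, each with its SE and the limma adjusted p.

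**Figure D2:**
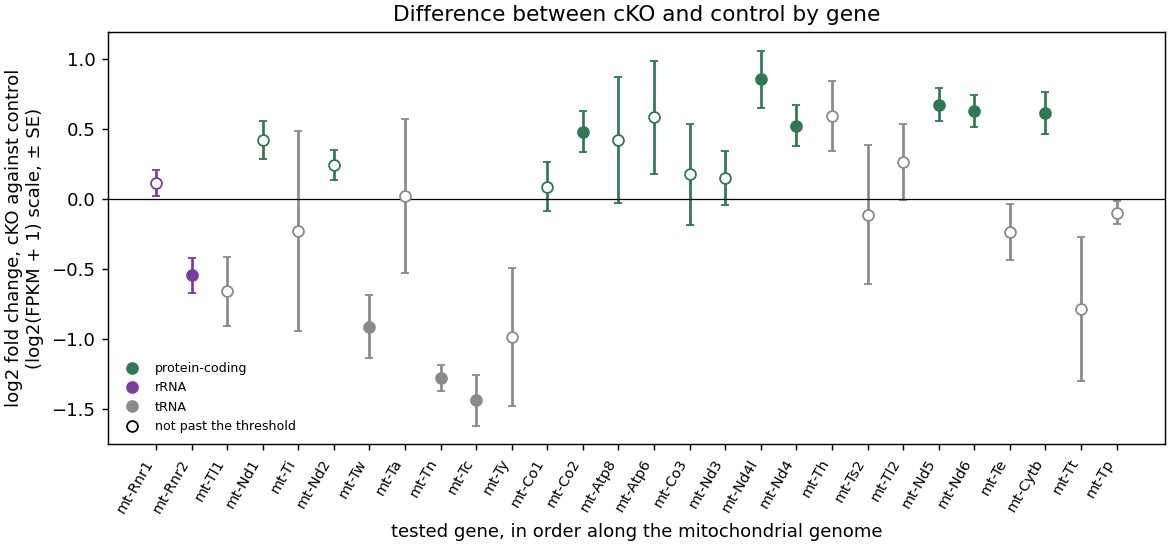
Log2 fold change of cKO against control on the log2(FPKM + 1) scale (y axis) for the 28 mitochondrial genes tested, in order along the genome (x axis). Points are estimates, bars are ± SE, colours mark the class, and filled points passed an adjusted p of 0.05. Filled points were 6 protein-coding genes above 0, and mt-Rnr2 and 3 tRNA genes below 0.

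Complex I, the NADH dehydrogenase through which electrons enter the respiratory chain, has 7 mitochondrially encoded subunits. Of these, 4 rose, against 11.8% of all genes. The call of mt-Nd4l is uncertain since a nuclear copy has the same sequence. A nuclear copy also matches the first 876 bases of mt-Nd4 with 0 differing bases, and its part in that call was not tested. mt-Nd5, at MT 11742 to 13565 on the plus strand, was at 912, 877 and 1006 FPKM in the control replicates and at 1479, 1663 and 1322 FPKM in the cKO replicates. Every cKO library lay above every control, and the gene rose with a log2 fold change of 0.67 (SE 0.12, limma adjusted p 0.00531). It kept its call under all 16 alternatives tried.

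mt-Nd6 is the single protein-coding gene on the minus strand, at MT 13552 to 14070, where it shares its last 14 bases with the end of mt-Nd5 on the opposite strand. It was at 934, 953 and 1069 FPKM in the control replicates and at 1468, 1688 and 1416 FPKM in the cKO replicates. The groups were apart, and the log2 fold change was 0.63 (SE 0.11, limma adjusted p 0.00554). The call was lost with quantile normalisation alone of the 16 alternatives (0.48, adjusted p 0.134). The ratio of mt-Nd6 to mt-Nd5 FPKM was 1.06 ± 0.03 in the control and 1.03 ± 0.04 in the cKO group (SD, n = 3, overlapping, exact permutation p = 0.4). Whether the libraries or the counting kept the strand is not given in the sources used here, so fragments from mt-Nd6 and from transcripts of the other strand across it cannot be told apart.

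mt-Nd4, at MT 10167 to 11544, was at 1241, 1140 and 1264 FPKM in the control and at 1711, 2105 and 1470 FPKM in the cKO replicates. It rose with a log2 fold change of 0.52 (SE 0.15, limma adjusted p 0.0337). All cKO libraries lay above all controls, and the call was lost under 7 of 16 alternatives. mt-Nd4l, which ends inside mt-Nd4 at MT 9877 to 10173, was far less abundant, at 6.13, 7.69 and 8.37 FPKM against 12.6, 19.3 and 11.3 FPKM. Its log2 fold change of 0.85 was the largest of the 13 (SE 0.20, limma adjusted p 0.0179), from 30 to 43 fragments per control library and 51 to 84 per cKO library. The call was lost without control replicate 1 (adjusted p 0.0618).

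mt-Nd1, at MT 2751 to 3707, was at 2853, 2855 and 2751 FPKM in the control and at 3563, 4342 and 3461 FPKM in the cKO replicates. The groups did not overlap, but the adjusted p of 0.0523 from limma was just outside the threshold (log2 fold change 0.42, SE 0.14), and 5 of the 16 alternatives called it. mt-Nd2, at MT 3914 to 4951, was at 1328, 1211 and 1296 FPKM against 1489, 1657 and 1387 FPKM, again without overlap and not called (log2 fold change 0.24, SE 0.11, limma adjusted p 0.133). mt-Nd3, at MT 9459 to 9806, was at 4.54, 6.0 and 5.32 FPKM against 6.04, 7.85 and 4.35 FPKM. Its groups overlapped (log2 fold change 0.15, limma adjusted p 0.593).

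Complex III has a single mitochondrially encoded subunit, cytochrome b. Its gene mt-Cytb, at MT 14145 to 15288, was at 3265, 3127 and 3265 FPKM in the control and at 4510, 5786 and 4557 FPKM in the cKO replicates. The controls lay close together and all cKO libraries stood above them, for a log2 fold change of 0.61 (SE 0.15, limma adjusted p 0.0189) and a ratio of means of 1.54. The call was lost under 6 of 16 alternatives, among them leaving out any one control replicate (adjusted p 0.0548 to 0.0752). The gene has 1 base past its last whole codon and thus no complete stop codon of its own, as have mt-Co3 and mt-Nd4. In such mitochondrial mRNAs the stop codon is completed by the poly(A) tail.

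Complex IV, cytochrome c oxidase, has its 3 core subunits encoded in the mitochondrion, and 1 of them, mt-Co2, was called higher, against 11.8% of all genes. That call is uncertain since a nuclear copy has the same sequence. mt-Co1, at MT 5328 to 6872, had the highest FPKM of all protein-coding genes in the table. It was at 6803, 6932 and 6643 FPKM in the control and at 6513, 8691 and 6633 FPKM in the cKO replicates. Only cKO replicate 2 stood above the controls, and the log2 fold change was 0.09 (SE 0.17, limma adjusted p 0.731). mt-Co2, at MT 7013 to 7696, was at 73.9, 73.2 and 73.8 FPKM against 83.9, 129 and 101 FPKM, and was called higher (log2 fold change 0.48, SE 0.15, limma adjusted p 0.0441). The lowest cKO library was above the highest control, but the call was lost under 8 of 16 alternatives. mt-Co3, at MT 8607 to 9390, was at 27.9, 29.5 and 38.7 FPKM against 26.0, 67.1 and 26.4 FPKM, with only cKO replicate 2 high (log2 fold change 0.17, SE 0.36, limma adjusted p 0.737).

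The 2 mitochondrial genes of ATP synthase were not called. mt-Atp6, at MT 7927 to 8607, was at 23.9, 34.5 and 28.9 FPKM in the control and at 31.5, 88.3 and 29.5 FPKM in the cKO replicates, so that a single cKO library was high (log2 fold change 0.58, SE 0.40, limma adjusted p 0.306). mt-Atp8, at MT 7766 to 7969, had 40 fragments over all 6 libraries, and its FPKM were 2.08, 1.6 and 0.85 against 2.81, 4.69 and 0.65. The highest and the lowest of the 6 values were both in the cKO group (log2 fold change 0.42, SE 0.45, limma adjusted p 0.504).

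**Figure D3:**
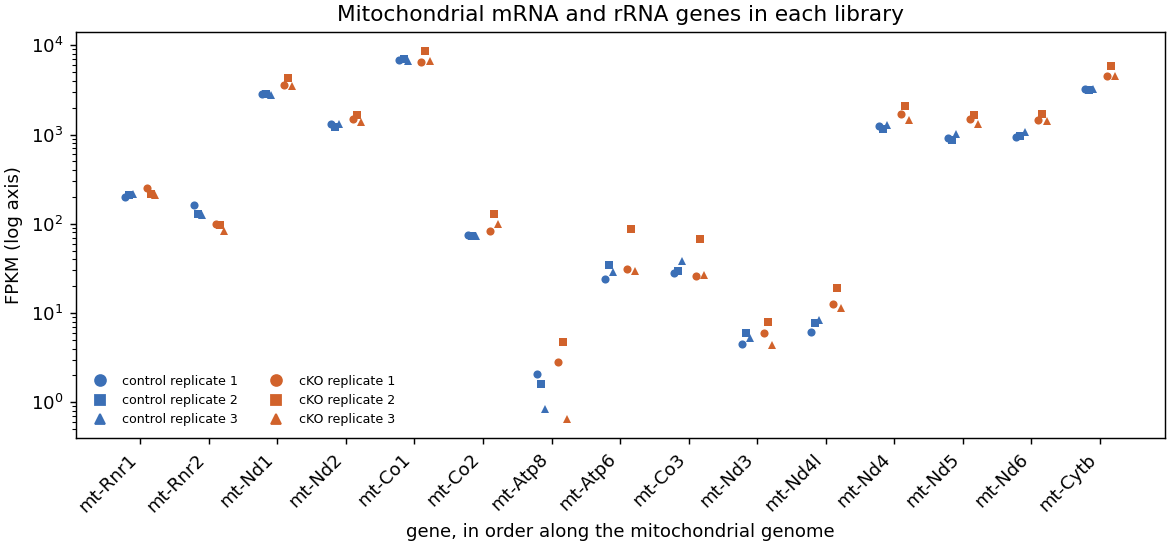
FPKM on a log axis (y axis) of the 13 mitochondrial protein-coding and 2 rRNA genes in order along the genome (x axis), with control libraries in blue and cKO libraries in orange, and a circle, square and triangle for replicates 1, 2 and 3. mt-Nd5, mt-Nd6 and mt-Cytb were higher in all 3 cKO libraries, mt-Rnr2 was lower, and the genes from mt-Co2 to mt-Nd4l lay far below the other protein-coding genes.

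Of the mitochondrial mRNA fragments counted in a library, mt-Co1 made up less in the cKO group. It took 47.1%, 48.6% and 46.2% of the mitochondrial mRNA fragments in control replicates 1, 2 and 3, and 38.6%, 40.8% and 40.2% in cKO replicates 1, 2 and 3. The ratio of mt-Cytb to mt-Co1 FPKM, which does not depend on the scaling of a library, was 0.480, 0.451 and 0.492 in the control and 0.692, 0.666 and 0.687 in the cKO replicates. Relative to their means, these mt-Cytb ratios lay closer together than the FPKM did in the cKO group, but not in the control group. The same ratio for mt-Nd5 was 0.127 to 0.151 in the control and 0.191 to 0.227 in the cKO group, and for mt-Nd1 it was 0.412 to 0.419 against 0.50 to 0.547. For mt-Nd2 the groups overlapped, at 0.175 to 0.195 against 0.191 to 0.229. All these shares and ratios are of fragments as counted, and need not give the make-up of the mRNA. As described below, 30.8% of the 100-base windows of mt-Co1 occur in other annotated genes. The 5 genes with over 90% of such windows held only 0.478% of the mitochondrial mRNA fragments. How reads that fit several places were counted is not given.

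The 13 mRNAs spanned a range from 2.11 FPKM (mt-Atp8) to 7036 FPKM (mt-Co1) as means over the 6 libraries, and the low ones lay side by side. mt-Nd1, mt-Nd2, mt-Nd5, mt-Nd6 and mt-Cytb had means of 1210 to 4085 FPKM. mt-Co2, mt-Atp6, mt-Co3, mt-Nd3 and mt-Nd4l, which lie between mt-Co1 and mt-Nd4 together with mt-Atp8, had means of 5.68 to 89.1 FPKM and held 0.478% of the mitochondrial mRNA fragments.

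These low genes have nearly identical copies in the nuclear genome. GENCODE M21 annotates 7 unprocessed pseudogenes on the minus strand of chromosome 1, from 24611535 to 24616197 of GRCm38, that match the mitochondrial genes between MT 6381 and 11042. Gm28661 matches mt-Co2, Gm10925 matches mt-Atp6, Gm28437 matches mt-Co3 and Gm10222 matches mt-Nd4l with 0 differing bases, and Gm28439 matches the first 876 bases of mt-Nd4 with 0. Gm28438 differs from mt-Nd3 at 1 of 345 bases, and Gm29216 differs from mt-Co1 at 6 of 492. In all, 7 of 4149 aligned bases differed. The differing stretches are shown because they hold every base of these genes that tells a copy from its mitochondrial gene. Sequences are those of GENCODE M21, capitals mark the differing bases, and positions count from 1 at the first base of the mitochondrial gene.

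mt-Nd3, bases 1 to 23: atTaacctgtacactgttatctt

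Gm28438, the same bases: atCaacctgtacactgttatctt

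mt-Co1, bases 1054 to 1080: ggTCtAAcCggaAttgttttatccaac

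Gm29216, the same bases: ggATtGGcAggaTttgttttatccaac

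The difference in mt-Nd3 is T3C, in its first codon. The 6 differences in mt-Co1 lie between T1056A and A1066T, at the first bases that the annotation gives the copy, and the remaining bases of the match to the end of the gene are the same.

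As a measure of this, every 100-base window of a gene was looked up in all other annotated genes, and the percent found there was taken. It was 99.5% for mt-Co2 and mt-Atp6, 99.9% for mt-Co3, 97.6% for mt-Nd3 and 98.5% for mt-Nd4l, which are the 5 low genes. It was 60.8% for mt-Nd4, 30.8% for mt-Co1 and 3.19% for mt-Nd2, and 0% for mt-Nd1, mt-Nd5, mt-Nd6 and mt-Cytb and for both rRNA genes. With windows of 50 bases it was 8.19% for mt-Nd2, 7.61% for mt-Nd5, 51.1% for mt-Co1 and 1.04% for mt-Rnr2, and 0% again for mt-Nd1, mt-Nd6, mt-Cytb and mt-Rnr1. mt-Atp8 also had 0%. It lies inside the interval that the copies span, but among these copies GENCODE M21 annotates none of mt-Atp8, and whether the sequence between them matches it was not analysed here. How reads that fit several places were counted is not given in the sources used here, and the part of these copies in the low values was not tested.

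Fragments were counted on both gene and copy. For mt-Nd4l and Gm10222 together they were 68 to 143 per library, still far below the 24088 to 42475 on mt-Nd4. The copies held 48.3% to 55.3% of the fragments counted on mt-Co2 and Gm28661 together over the 6 libraries, and 50.9% to 63.1% for mt-Atp6 and Gm10925. For mt-Nd3 and Gm28438 they held 80.4% to 89.6%. For mt-Nd4 and mt-Co1, which also have bases without a copy on chromosome 1, the copies held at most 0.538% and 0.152%. The values of the 5 genes with over 90% shared windows, including the calls of mt-Co2 and mt-Nd4l, are therefore uncertain. For mt-Nd4, with 60.8% of its windows shared, the part of the copy in its call was not tested. Of the 5 genes with under 5% of their 100-base windows shared, other than mt-Atp8, 3 rose (mt-Nd5, mt-Nd6 and mt-Cytb), in all 5 the groups did not overlap, and the median log2 fold change was 0.61, where 11.8% of all genes tested were called higher and 50.4% did not overlap.

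**Figure D4:**
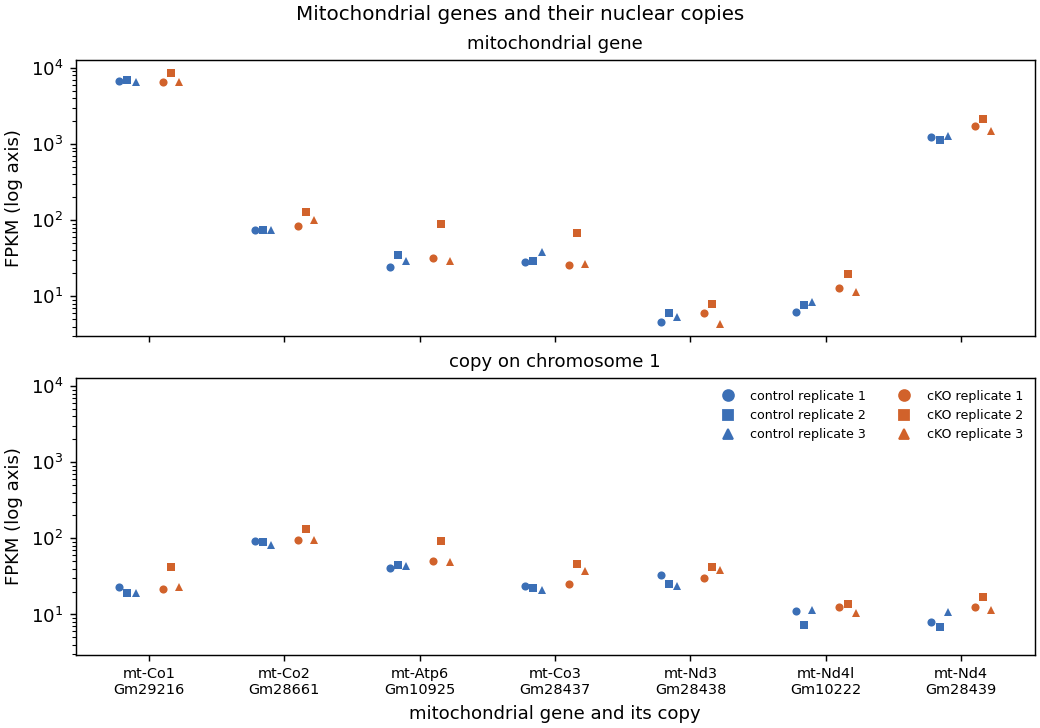
FPKM on a log axis (y axes) of 7 mitochondrial genes (upper panel) and of their copies on chromosome 1 (lower panel) in each library, with colours for the group and a circle, square and triangle for replicates 1, 2 and 3. mt-Co2, mt-Atp6, mt-Co3 and mt-Nd4l lay near their copies, mt-Nd3 lay below its copy in every library, and mt-Co1 and mt-Nd4 stood far above theirs. cKO replicate 2 was the highest library for all 7 mitochondrial genes.

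The copies gave 1 call of 7, near the 11.8% of all genes called higher. Gm28439, the copy of mt-Nd4, was at 7.90, 6.78 and 10.8 FPKM in the control and at 12.6, 17.1 and 11.6 FPKM in the cKO replicates (log2 fold change 0.64, SE 0.19, limma adjusted p 0.0420). Gm28437, the copy of mt-Co3, was at 23.7, 22.2 and 21.3 FPKM against 25.2, 46.5 and 37.5 FPKM (log2 fold change 0.63, SE 0.20, limma adjusted p 0.0503). Both stood at or near the threshold.

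cKO replicate 2 stood apart. It was the highest of the 6 libraries for all 13 protein-coding genes. Relative to the mean of cKO replicates 1 and 3 it was 1.15 to 1.28 times as high for the 5 genes with under 5% shared windows and 1.40 to 2.90 times as high for the 5 with over 90%. mt-Atp6 was 2.90 times and mt-Co3 2.56 times as high, and mt-Atp8, with few fragments, was 2.71 times as high. Without this library, 5 protein-coding genes were called higher in place of 6, since mt-Co2 lost its call (log2 fold change 0.32, adjusted p 0.0530).

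Several mRNA genes share bases with their neighbours, so a fragment there fits both. mt-Atp8 and mt-Atp6 overlap by 43 bases at MT 7927 to 7969, in different reading frames. In the overlap, the start codon of mt-Atp6 and the stop codon of mt-Atp8 are in capitals. mt-Nd4l and mt-Nd4 overlap by 7 bases, which are in capitals in the stretch from MT 10153 to 10187. These pairs are each carried by a single bicistronic mRNA in mammals.

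mt-Atp8 and mt-Atp6, plus strand: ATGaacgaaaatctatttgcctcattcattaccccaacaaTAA

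mt-Nd4l and mt-Nd4, plus strand: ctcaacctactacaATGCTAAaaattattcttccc

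Both members of a bicistronic pair were far apart in FPKM. mt-Nd4 had a mean of 1215 FPKM in the control group and mt-Nd4l, on the same mRNA, one of 7.40 FPKM. mt-Nd4l has 98.5% of its windows in a copy and mt-Nd4 60.8%.

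The 2 rRNA genes encode the RNA of the small (mt-Rnr1) and the large (mt-Rnr2) subunit of the mitochondrial ribosome, and the latter was called lower, as were 22.2% of all genes tested. mt-Rnr2, at MT 1094 to 2675, was at 161, 128 and 124 FPKM in the control and at 100.5, 97.1 and 83.2 FPKM in the cKO replicates. All cKO libraries lay below all controls, and it fell by 0.55 on the log2 scale (SE 0.12, limma adjusted p 0.0144). The call was lost without cKO replicate 3 (adjusted p 0.0539). mt-Rnr1, at MT 70 to 1024, was at 198, 210 and 215 FPKM against 254, 213 and 208 FPKM, with overlapping groups (log2 fold change 0.11, SE 0.09, limma adjusted p 0.405).

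The genes are transcribed as neighbours, with only mt-Tv between them, yet their ratio differed between the groups. The ratio of mt-Rnr1 to mt-Rnr2 FPKM was 1.23, 1.64 and 1.73 in control replicates 1, 2 and 3 and 2.53, 2.19 and 2.50 in cKO replicates 1, 2 and 3. The groups did not overlap (mean 1.53 ± 0.27 against 2.41 ± 0.19, SD, n = 3, exact permutation p = 0.1). Both rRNA genes lay below the mRNAs of neighbouring mt-Nd1, at 2820 FPKM in the control mean. Whether rRNA was depleted, or RNA selected by its poly(A) tail, before sequencing is not given in the sources used here, and these levels are of what the libraries held.

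The tRNA genes are 59 to 75 bases long and gave few fragments, between 572 and 1056 per library for all 22 together. They are shorter than usual library fragments. Their values are therefore of fragments counted on the genes, and need not be levels of mature tRNA. Of the 22, 13 reached a mean of 1 FPKM and were tested, 3 were called lower and 0 higher, against 22.2% lower and 11.8% higher among all genes tested, so the count of lower calls was near the background. Their median log2 fold change was -0.24. At an unadjusted p under 0.05 mt-Tl1 was also lower, and mt-Th higher. The groups did not overlap for the 3 called genes alone, against 50.4% of all genes tested.

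The 3 tRNA genes that fell lie in 1 cluster between mt-Nd2 and mt-Co1. This cluster holds, in order, the genes for tryptophan (mt-Tw), alanine (mt-Ta), asparagine (mt-Tn), cysteine (mt-Tc) and tyrosine (mt-Ty), the last 4 on the minus strand. The 5 sequences with most bearing on the tRNA values are given 5′ to 3′ on the strand of the gene, with the anticodon in capitals: 4 of this cluster and mt-Tp, the proline tRNA gene, which had the highest FPKM of the 22.

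mt-Tw, MT 4950 to 5016, plus strand: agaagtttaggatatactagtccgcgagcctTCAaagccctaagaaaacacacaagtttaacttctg

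mt-Tn, MT 5089 to 5159, minus strand: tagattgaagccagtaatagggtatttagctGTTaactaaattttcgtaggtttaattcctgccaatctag

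mt-Tc, MT 5192 to 5257, minus strand: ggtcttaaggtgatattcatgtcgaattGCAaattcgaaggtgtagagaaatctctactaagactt

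mt-Ty, MT 5260 to 5326, minus strand: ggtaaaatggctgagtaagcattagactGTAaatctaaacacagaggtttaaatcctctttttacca

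mt-Tp, MT 15356 to 15422, minus strand: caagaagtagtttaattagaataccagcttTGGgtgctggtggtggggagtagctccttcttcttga

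mt-Tc was at 265, 279 and 258 FPKM in the control and at 132, 90.02 and 78.8 FPKM in the cKO replicates. Even the highest cKO library was well below the lowest control, and the gene fell by 1.44 on the log2 scale (SE 0.18, limma adjusted p 0.00108). mt-Tn was at 136, 109 and 122 FPKM against 47.5, 50.02 and 51.9 FPKM, and fell by 1.28 on the log2 scale (SE 0.09, limma adjusted p 8.47e-05). Both genes kept their calls under all 16 alternatives. mt-Tw was at 19.9, 25.3 and 19.0 FPKM against 10.4, 15.3 and 7.86 FPKM, from 22 to 26 fragments per control library and 8 to 15 per cKO library. It fell by 0.91 on the log2 scale (SE 0.23, limma adjusted p 0.0203), and lost its call under 5 alternatives.

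The other genes of the cluster were not called. mt-Ty was at 39.9, 37.0 and 56.9 FPKM in the control and at 38.9, 28.5 and 8.84 FPKM in the cKO replicates, with a single cKO library far below the rest (log2 fold change -0.98, SE 0.49, limma adjusted p 0.169). mt-Ta had 12 fragments over the 6 libraries. The tRNA genes mt-Tn and mt-Tc lie on the strand opposite to mt-Nd2 and mt-Co1, so without strand their fragments cannot be told apart from those of plus-strand precursors that cross the cluster.

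mt-Tp was not called. It was at 367, 374 and 346 FPKM in the control and at 342, 363 and 311 FPKM in the cKO replicates, with overlapping groups and a log2 fold change of -0.10 (SE 0.08, limma adjusted p 0.402). Its alternatives stayed between -0.15 and -0.04. mt-Tp closes the gene map beside the control region, and it is the first gene on the precursor that holds the minus-strand genes.

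Of the remaining tested tRNA genes, mt-Tl1 for leucine had the lowest adjusted p, at 38.04, 35.7 and 23.1 FPKM in the control and at 26.3, 19.1 and 14.9 FPKM in the cKO replicates (log2 fold change -0.66, SE 0.25, limma adjusted p 0.0805). It directly follows mt-Rnr2. mt-Th for histidine was at 15.4, 16.6 and 8.63 FPKM against 16.1, 23.4 and 21.6 FPKM (log2 fold change 0.59, SE 0.25, limma adjusted p 0.111). mt-Tl2 (leucine), mt-Te (glutamate) and mt-Ts2 (serine) had log2 fold changes of 0.26, -0.24 and -0.11, all with overlapping groups. mt-Tt (threonine) and mt-Ti (isoleucine) had 11 and 8 fragments over the 6 libraries and allow no reading.

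**Figure D5:**
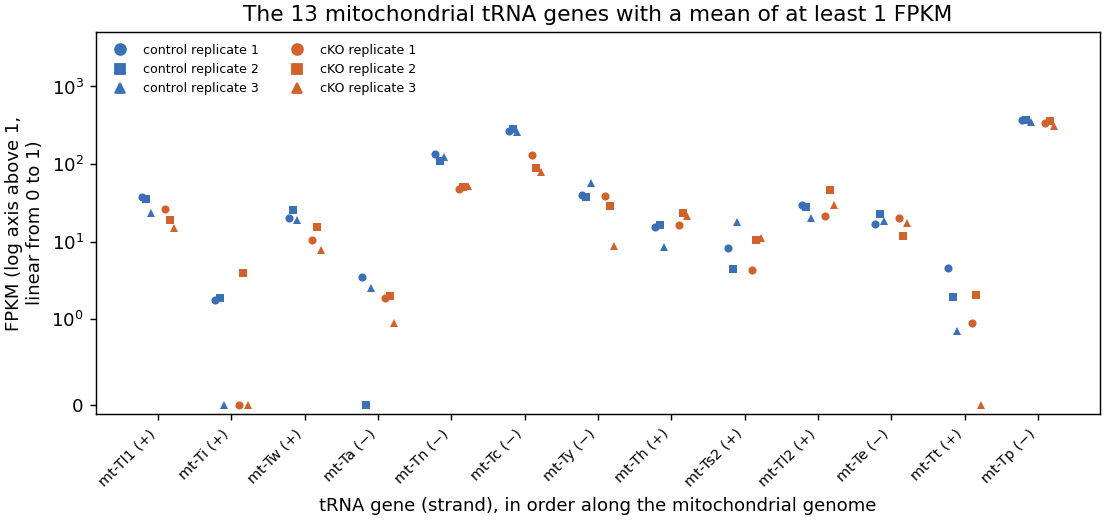
FPKM of the 13 tested tRNA genes (y axis, logarithmic above 1 and linear from 0 to 1) in order along the mitochondrial genome with the strand in brackets (x axis). Colours mark the group and a circle, square and triangle replicates 1, 2 and 3. mt-Tw, mt-Tn and mt-Tc were lower in all 3 cKO libraries, while mt-Tp at the right lay between 311 and 374 FPKM in all 6.

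The tRNA genes below the filter were near or at 0. mt-Tm (methionine), mt-Tv (valine) and mt-Tq (glutamine) had 6, 3 and 2 fragments over the 6 libraries. The other 6 had 0 fragments in every library: mt-Tf (phenylalanine), mt-Ts1 (serine), mt-Td (aspartate), mt-Tk (lysine), mt-Tg (glycine) and mt-Tr (arginine). A count of 0 allows up to 3 fragments, which for mt-Tf is 2.55 to 3.01 FPKM depending on the library. Of these 6, 5 lie between MT 6381 and 11042, the interval that the chromosome 1 copies span, and all 5 tRNA genes of that interval were at 0. No 50-base window of these 5 occurs in another annotated gene, and the sequence between the copies was not analysed here. Of the 17 tRNA genes outside it, 1 was at 0.

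By strand, the 8 tRNA genes of the minus strand held most tRNA fragments, 87.1% to 89.6% in the control libraries and 81.5% to 87.1% in the cKO libraries. Of the 6 minus-strand genes tested, 2 fell, and of the 7 plus-strand genes tested, 1 fell. Of all genes tested 22.2% were called lower, and the difference between the strands was not tested.

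The nuclear genes for mitochondrial gene expression were called in both directions. Of 16 tested genes for mitochondrial transcription and DNA maintenance, 1 was higher and 2 were lower (median log2 fold change -0.05), against 11.8% higher and 22.2% lower among all genes. Polrmt, the mitochondrial RNA polymerase, was at 19.9 ± 0.4 and 22.0 ± 1.9 FPKM in the control and cKO groups (SD, n = 3, log2 fold change 0.14, limma adjusted p 0.232). Tfam, which packages mitochondrial DNA and starts transcription, was at 15.5 ± 4.2 and 10.2 ± 0.6 FPKM and missed the threshold (log2 fold change -0.53, limma adjusted p 0.0519). Tfb2m, the second initiation factor, and Tefm, the elongation factor, had log2 fold changes of -0.05 and -0.04. Ssbp1, which binds single-stranded mitochondrial DNA, rose (0.29, limma adjusted p 0.0443), and Polg, the DNA polymerase, fell by 0.45 (limma adjusted p 0.00643).

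Among 29 tested genes for processing and stability of mitochondrial RNA, 4 rose and 5 fell, and the median log2 fold change was -0.07. Both counts were near the 11.8% higher and 22.2% lower among all genes. Of the factors that stabilise, polyadenylate or degrade mitochondrial mRNA, 5 were not called: Lrpprc was at 0.02, Slirp at -0.07, Mtpap (the poly(A) polymerase) at -0.20, Pnpt1 at -0.13 and Supv3l1 at 0.06 on the log2 scale. Of the enzymes that cut tRNAs out of the precursor, 2 subunits of mitochondrial RNase P rose, Trmt10c by 0.45 (SE 0.12, limma adjusted p 0.0249) and Hsd17b10 by 0.38 (SE 0.11, limma adjusted p 0.0415). Elac2, which cuts at the other end of the tRNA, was at -0.12 (limma adjusted p 0.362). Rexo2, an exonuclease for short RNA, rose by 0.40 (limma adjusted p 0.0284). The list had 0 genes called higher with the replicate number as a block, without cKO replicate 1 and without cKO replicate 3. It had 1 without control replicate 3.

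The genes of this list with the largest falls were Nsun4, Tfb1m and Mrm3. Tfb1m, which dimethylates the small-subunit rRNA, fell by 0.75 (SE 0.13, limma adjusted p 0.00436), from 9.81 ± 1.49 to 5.40 ± 0.45 FPKM (SD, n = 3). Nsun4, a methyltransferase of the small-subunit rRNA, fell by 0.83 (limma adjusted p 0.0143), and Mrm3, which methylates the large-subunit rRNA, fell by 0.49 (limma adjusted p 0.0225).

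Of 11 translation factors tested, 2 fell and 0 rose, a share of lower calls near the 22.2% of all genes. They were Taco1, the translational activator of mt-Co1 mRNA, by 0.79 (SE 0.11, limma adjusted p 0.00221), and the release factor Mtrf1 by 0.50 (limma adjusted p 0.0212). Mtrf1 had means of 1.78 FPKM in the control and 0.96 FPKM in the cKO group. It passed the filter of 1 FPKM only through the control group, so its call is a description alone. Of 77 mitochondrial ribosomal protein genes tested, 9 were higher and 5 lower, with a median of 0.06. The share of higher calls was near the 11.8% of all genes, and that of lower calls was below 22.2%. Mrps2, Mrpl3 and Mrps5 had the largest rises, 0.46, 0.41 and 0.33, and Mrpl41, Mrps23 and Mrps28 the largest falls, to -0.53, -0.50 and -0.41.

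The nuclear partners of the mitochondrial subunits were called in both directions, and their counts stand against 11.8% higher and 22.2% lower among all genes. Of 35 nuclear complex I genes tested, 1 was higher (Ndufs7, 0.26) and 5 were lower, among them Ndufa12 (-0.67), Ndufc1 (-0.63) and Ndufv3 (-0.56), and the median was -0.04, against 0.52 for the 7 mitochondrial genes of the complex. Of 9 complex III genes, Uqcr10 rose (0.38) and Uqcrq fell (-0.43). Of 15 ATP synthase genes, Atp5g2 rose (0.32) and Atp5j fell (-0.26).

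Complex IV held the largest changes. Of 17 nuclear genes tested, 4 were higher and 4 lower, with a median of 0.26. Cox8c, a subunit form of the testis, fell by 2.58 on the log2 scale (SE 0.13, limma adjusted p 1.67e-05), from 182 ± 30.0 to 29.3 ± 2.2 FPKM (SD, n = 3). Cox6b2 and Cox7b2, also testis forms, fell by 1.02 and 0.44. Cox7b, the general form, rose by 0.87 (SE 0.15, limma adjusted p 0.00448) and Ndufa4 by 0.37. Cox4i2 was also called higher (0.83), at means of 0.59 FPKM in the control and 1.84 FPKM in the cKO group. It passed the filter of 1 FPKM only through the cKO group, so its call is a description alone. The summed FPKM of the list was 1487 to 1708 in the control and 1505 to 1583 in the cKO libraries, so the totals overlapped. The pachytene markers, of which 10 of 10 fell, summed to 1111 to 1320 FPKM in the control and 228 to 255 FPKM in the cKO libraries. The part of that difference in these values was not tested.

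Markers of other cells were called as follows, where 11.8% of all genes were higher and 22.2% lower. Of 7 undifferentiated spermatogonia markers tested, 2 were higher and 1 lower, of 10 differentiating spermatogonia markers 1 was lower, of 10 early meiotic prophase markers 2 were lower, and of 6 Sertoli markers 1 was higher. No other somatic marker tested was called. Summed FPKM of the differentiating spermatogonia markers was 908 to 1024 in the control and 995 to 1113 in the cKO libraries, and that of early meiotic prophase 910 to 1209 and 965 to 1275. Sertoli cell markers summed to 14.95 to 22.7 and 15.6 to 40.5 FPKM, Leydig cell markers to 4.60 to 15.2 and 7.26 to 12.7, and macrophage and blood markers to 17.2 to 47.0 and 12.3 to 25.4. Peritubular markers summed to 3.69 to 6.44 FPKM in the control and 7.04 to 8.16 in the cKO libraries, without overlap, and endothelial markers to 1.24 to 1.53 and 0.86 to 1.93. In cKO replicate 2, which was the highest library for mitochondrial mRNA, the sums were the highest of the cKO group for early meiotic prophase (1275 FPKM), macrophage and blood (25.4 FPKM) and spermatid markers (9.63 FPKM). They were the lowest of the cKO group for Sertoli (15.6 FPKM), Leydig (7.26 FPKM), peritubular (7.04 FPKM), endothelial (0.86 FPKM), differentiating (995 FPKM) and undifferentiated spermatogonia markers (37.3 FPKM), and for pachytene markers they lay between the others (232 FPKM). The part of these cells in the values of this library was not tested.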

How the data were processed

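The authors deposited 1 table of FPKM for 54532 genes with a column per library. The submitters' processing notes name HISAT2 2.0.5 and mm10; the counter, its handling of strand and of multiply mapped reads, and the RNA selection are not given in the sources used here. The product of FPKM and gene length was a whole multiple of 1 step per library for 100% of the values (tolerance 0.01), which gave the fragments per gene (14447887 to 17310353 per library). The library size implied by the deposited FPKM was 0.971 to 1.05 times this sum. No column of other samples was present.

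Groups and replicate numbers came from the labels. The 15451 genes averaging 1 FPKM or more were tested on the log2(FPKM + 1) scale, which understates changes of low genes, with lmFit and eBayes with trend (limma 3.58.1, R 4.3.3), Benjamini-Hochberg adjusted with a threshold of 0.05. The scripts were tested on simulated data. Shares of fragments were compared with a two-sided exact permutation test on the difference of means, written in Python 3.11.15 with NumPy 2.4.6. A count of 0 was read as up to 3 fragments, which covers counting error only. Sequences came from GENCODE M21 transcripts, in which all 37 genes have the same position. Copies were found by matching the mitochondrial genes to all other genes of that annotation.

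The members, the nuclear gene lists and the cell type markers were chosen with earlier results of these data known. Named were all mitochondrial protein-coding and rRNA genes, the tRNA genes past the filter and those of the others with most fragments, Srsf1, 12 nuclear genes whatever their values, and up to 3 called genes of each nuclear list in each direction. Alternatives were a pseudocount of 0.1, no filter or a minimum mean of 5 FPKM, other scalings, eBayes without trend, limma-voom on the fragments, a replicate block and leaving out each library.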

Additional observations from a re-analysis of the deposited data

How the results depend on the processing

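The count of mitochondrial protein-coding genes called higher (6) was 3 without a filter on FPKM, 3 with quantile normalisation, which puts the median of all genes at 0.20, 3 with the replicate block, and 2 to 5 when 1 library was left out (2 without control replicate 1, 3 without control replicate 2 or 3). It was 7 or 8 with FPKM recomputed from fragments and 8 with limma-voom, and 0 were lower under every alternative run. mt-Nd5 alone of the 13 was called under all 16. The tRNA genes called higher went from 0 to 1 (mt-Th) with quantile normalisation, and 2 to 4 were called lower in all alternatives. The rRNA genes called lower went from 1 to 0 without cKO replicate 3 (0 to 1 over the libraries left out). Over all genes, 1821 called higher became 4854 with quantile normalisation, 891 with the replicate block and 969 to 1767 when 1 library was left out, and 3437 called lower became 1950 at a mean of at least 5 FPKM, where fewer genes were tested. The other causes were not tested. The labels do not say that replicate numbers pair libraries, and deviations of same-numbered libraries correlated at 0.00, -0.11 and 0.02 over 15451 genes, so the replicate block was not preferred. The difference in mitochondrial share, 0.675 percentage points, was 0.592 to 0.712 with other denominators and 0.479 to 0.773 when 1 library was left out, and permutation within same-numbered pairs gave an exact p of 0.25, the smallest it allows. The counts called in the nuclear lists ranged over the 16 alternatives, higher and lower, from 0 to 5 and 2 to 3 for transcription and DNA maintenance, 0 to 10 and 3 to 7 for RNA processing, 0 to 3 and 1 to 2 for translation factors, 2 to 31 and 3 to 5 for ribosomal proteins, 0 to 7 and 4 to 5 for complex I, 1 to 4 and 0 to 1 for complex III, 2 to 8 and 2 to 4 for complex IV, and 0 to 4 and 0 to 1 for ATP synthase. Quantile normalisation gave the highest count of higher calls in each of these lists, for complex I and complex IV together with another alternative. Ssbp1, Hsd17b10, Ndufs7 and Atp5j each lost their calls under 8 or more alternatives. No called value changed sign. Few fragments were counted on mt-Atp8 and on the 9 tRNA genes that were not tested, and the cause was not tested.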
